A study of Mus musculus with 3 samples.

Results

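The cells described here were ventricular fibroblasts (FBs) of the mouse that carried transcripts of at least 1 of the genes *Wif1*, *Comp* and *Chad*, most often of *Comp*. They were selected on measured values. A cell counted as an FB when it held at least 3 unique molecular identifiers (UMIs, the molecules counted) of *Col1a1*, *Col1a2* and *Pdgfra* together, and when this sum was over 2 times each of the sums of endothelial (*Pecam1*, *Cdh5*, *Kdr*, *Egfl7*), blood (*Ptprc*, *Tyrobp*, *C1qa*) and mural (*Myh11*, *Rgs5*, *Vtn*) genes. An FB became a member when *Wif1*, *Comp* and *Chad* together had at least 3 UMIs. This gave 167 members among 1419 FBs and 6915 cells, and the remaining 1252 FBs are called other FBs. The levels of *Wif1*, *Comp* and *Chad* in members are therefore descriptions of the choice and not findings.

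The non-cardiomyocytes came from ventricles of wild-type male C57BL/6J JCL mice with the atria removed. The healthy group was sampled at 0 weeks of transverse aortic constriction (TAC), a ligation of the aortic arch that loads the left ventricle with pressure, and is labelled as control. The adaptive hypertrophy group had 2 weeks and the heart failure group 12 weeks of TAC, with surgery at 8 weeks of age. Each group was 1 droplet library, and the number of hearts behind a library is not given in the sources used here. Library and phase can thus not be told apart, no test between phases was possible, and the intervals below are 95% intervals that cover counting error only.

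WIF1 is a secreted protein that binds WNT ligands outside the cell and keeps them from their receptors. COMP and chondroadherin, the product of *Chad*, are matrix proteins that bind collagen and are best known from cartilage and tendon. Fibromodulin (*Fmod*) and PRELP are small leucine-rich proteins that sit on collagen fibrils, and lubricin (*Prg4*) coats sliding surfaces such as those of joints and tendons. DKK3 belongs to the Dickkopf family of secreted proteins, and pleiotrophin (*Ptn*) is a heparin-binding growth factor. In the heart, genes of this kind are known from valve leaflets, the fibrous annuli and the chordae.

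For orientation, the promoter stretches of *Wif1*, *Chad* and *Fmod* are shown, the first 2 as genes of the rule and *Fmod* as the gene with the largest ratio over other FBs among the 5 described here. They are the 150 bases before the RefSeq start in GRCm38.p6, the build of the files, written 5′ to 3′ on the strand of the gene, and capitals mark the letters TATAAA.
*Wif1*, chr10:121033854-121034003, plus strand: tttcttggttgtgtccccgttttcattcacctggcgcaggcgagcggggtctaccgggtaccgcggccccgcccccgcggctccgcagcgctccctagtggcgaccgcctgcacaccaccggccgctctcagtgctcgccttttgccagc
*Chad*, chr11:94564897-94565046, plus strand: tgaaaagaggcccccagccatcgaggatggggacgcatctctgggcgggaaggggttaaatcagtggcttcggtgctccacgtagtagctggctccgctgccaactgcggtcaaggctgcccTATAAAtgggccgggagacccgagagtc
*Fmod*, chr1:134037104-134037253, plus strand: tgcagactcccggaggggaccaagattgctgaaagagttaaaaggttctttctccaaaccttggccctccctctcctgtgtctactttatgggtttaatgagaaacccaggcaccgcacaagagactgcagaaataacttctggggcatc
Of these stretches, that of *Chad* held TATAAA on either strand, 28 to 23 bases before the start. Over 32851 RefSeq promoters, 7.57% had TATAAA in the same 150 bases. The *Wif1* stretch was 69.3% G and C, those of *Chad* and *Fmod* were 61.3% and 49.3%, and the median promoter had 54%. All are protein-coding genes. The others described first lie at chr8:70373558-70382066 (*Comp*), chr7:112116017-112159057 (*Dkk3*), chr1:133910304-133921414 (*Prelp*), chr1:150449412-150466165 (*Prg4*) and chr6:36714929-36810220 (*Ptn*) in GRCm38. Of these 8 genes 5 had an entry in the RefSeq table, and *Comp*, *Dkk3* and *Prg4* had none.

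The libraries held 3900, 2239 and 802 cells with 12309881, 4472377 and 1723863 UMIs at 0, 2 and 12 weeks. FBs numbered 1160, 97 and 162, so that the levels after TAC rest on far fewer cells. Members had a median of 3562, 2877 and 4036 UMIs and other FBs of 3054, 1887 and 2453, and a deeper cell passes the member rule more easily. The median share of mitochondrial UMIs was 2.42%, 4.47% and 2.51% in members and 2.59%, 6.01% and 4.83% in other FBs. Libraries shared 5, 1 and 3 cell barcodes, and no member carried a shared one. The part of depth and RNA quality in the results was not tested beyond the settings given at the end.

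Members made up a larger share of the FBs after TAC. There were 96 members among 1160 FBs at 0 weeks, which is 8.28% (exact binomial interval, 6.75% to 10.0%). At 2 weeks there were 26 among 97 FBs, or 26.8% (18.3% to 36.8%). At 12 weeks there were 45 among 162 FBs, or 27.8% (21.0% to 35.3%). The intervals at 2 and 12 weeks lay above that at 0 weeks and overlapped each other. Among all cells kept, members were 96 of 3892, 26 of 2231 and 45 of 792 at 0, 2 and 12 weeks. Their share of all cells was thus lower at 2 weeks and higher at 12 weeks than at 0 weeks. When each FB was thinned to 1500 UMIs, with 145, 42 and 37 shallower FBs left out, the shares were 5.52% (4.19% to 7.11%), 18.2% (9.08% to 30.9%) and 15.2% (9.41% to 22.7%), in the same order of healthy against TAC.

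The make-up of the members differed between the phases (a split made after the values were seen). In the healthy library 22 members had a *Chad* UMI, 34 had a *Wif1* UMI without *Chad*, and 40 had *Comp* UMIs alone. All 22 members with *Chad* also had *Comp*, and 13 of them had all 3 genes. At 2 weeks these groups held 2, 2 and 22 cells, and at 12 weeks 2, 11 and 32 cells. Members with *Comp* alone were 3.45% (2.47% to 4.67%) of the FBs at 0 weeks, 22.7% (14.8% to 32.3%) at 2 weeks and 19.8% (13.9% to 26.7%) at 12 weeks. Members with *Wif1* and no *Chad* were 2.93% (2.04% to 4.07%), 2.06% (0.251% to 7.25%) and 6.79% (3.44% to 11.8%). Members with *Chad* were 1.90% (1.19% to 2.86%), 2.06% (0.251% to 7.25%) and 1.23% (0.150% to 4.39%), with overlapping intervals throughout. The larger share after TAC was thus mostly of FBs with *Comp* alone.

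**Figure D1:**
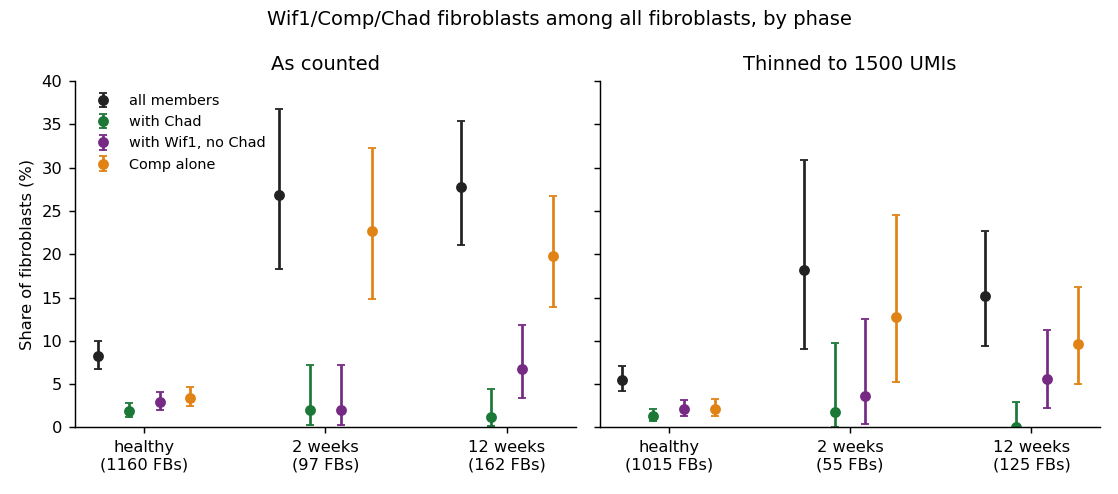
Share of FBs (%) that were members, for all members and for the groups of members with *Chad*, with *Wif1* and no *Chad*, and with *Comp* alone, in the healthy, 2-week and 12-week libraries, as counted (left) and thinned to 1500 UMIs per cell (right). Points are shares and bars exact 95% binomial intervals. All members went from 8.28% to 26.8% and 27.8% as counted, and *Comp* alone from 3.45% to 22.7% and 19.8%.

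The genes of the rule, summed over all FBs, restate the choice of members and are given as a description, in CPM (UMIs of a gene scaled to all UMIs of the group of cells) with exact Poisson intervals. *Comp* was at 224 CPM (210 to 240) in healthy FBs, 947 CPM (836 to 1069) at 2 weeks and 545 CPM (488 to 608) at 12 weeks. *Wif1* was at 144 CPM (132 to 156), 112 CPM (76.2 to 159) and 206 CPM (172 to 246). *Chad* was at 50.6 CPM (43.8 to 58.2), 14.5 CPM (3.94 to 37.0) and 3.36 CPM (0.407 to 12.1), the last from 2 UMIs. *Comp* was thus higher in both TAC libraries than in the healthy one and *Chad* was lower.

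In the healthy library the tendon- and cartilage-like genes stood far above other FBs in the members. *Fmod* was at 1409 CPM (509 UMIs) in members and 23.1 CPM (82 UMIs) in other FBs, a ratio of 61.1 (48.3 to 78.1). *Prg4* was at 1611 CPM against 88.1 CPM, a ratio of 18.3 (15.9 to 21.1). *Dkk3* was at 1008 CPM against 130 CPM, a ratio of 7.77 (6.75 to 8.93). The small leucine-rich *Prelp*, found in most FBs, was at 2126 CPM against 491 CPM, a ratio of 4.33 (3.98 to 4.72). *Ptn* was at 282 CPM against 74.6 CPM, a ratio of 3.79 (2.98 to 4.77). Summed, these 5 genes gave 6438 CPM in members and 806 CPM in other FBs, a ratio of 7.99 (7.56 to 8.44).

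The high sums came from many cells rather than from a few. *Fmod* had a UMI in 54 of 96 healthy members (56.2%) and in 42 of 1064 other FBs (3.95%), against 0.441% of blood cells, which should lack it. The median depths of these cells were 3562, 3054 and 2675 UMIs. The highest count of *Fmod* in a member was 66 UMIs. *Prg4* was seen in 70.8% of members, 11.7% of other FBs and 0.551% of blood cells, and also in 8.77% of endothelial cells (ECs), whose median depth was 2337 UMIs. *Dkk3* was seen in 81.2%, 22.2% and 0.771% of members, other FBs and blood cells. *Prelp* was seen in 92.7%, 71.3% and 3.63%, and *Ptn* in 35.4%, 9.77% and 0.441%. After thinning to 1500 UMIs, the shares in members and other FBs were 43.0% and 2.26% for *Fmod*, 58.1% and 7.21% for *Prg4*, 66.3% and 13.3% for *Dkk3*, 70.9% and 50.4% for *Prelp*, and 26.7% and 6.57% for *Ptn*. At least 3 of the 5 genes were found in 73 of 96 members (76.0%) and in 89 of 1064 other FBs (8.36%).

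Just inside and just outside the limit of the rule the 5 genes were closer together. The 22 healthy members with 3 or 4 UMIs of *Wif1*, *Comp* and *Chad* had 2747 CPM of the 5 genes (2384 to 3150). The 73 other FBs with 1 or 2 such UMIs had 1592 CPM (1454 to 1739).

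After TAC the distance between members and other FBs was smaller. At 12 weeks *Fmod* was at 102 CPM (22 UMIs) in members and 39.5 CPM (15 UMIs) in other FBs, a ratio of 2.57 (1.27 to 5.33). *Prg4* was at 236 CPM against 89.6 CPM, a ratio of 2.63 (1.67 to 4.19), and 16 of its 51 UMIs in members came from 1 cell. *Dkk3* was at 624 CPM against 282 CPM, a ratio of 2.21 (1.70 to 2.88). *Prelp* was at 758 CPM against 422 CPM, a ratio of 1.80 (1.44 to 2.25). *Ptn* was at 254 CPM against 253 CPM, a ratio of 1.00 (0.707 to 1.41). The sum of the 5 genes was 1.82 times (1.58 to 2.09) that of other FBs, where it had been 7.99 times in the healthy library.

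The 26 members at 2 weeks allowed a coarser view. *Fmod* was at 309 CPM (30 UMIs) in them against 27.8 CPM (5 UMIs) in other FBs, a ratio of 11.1 (4.27 to 36.7), and *Prelp* at 742 CPM against 485 CPM, a ratio of 1.53 (1.10 to 2.12). The ratios of *Prg4* (2.47, 0.751 to 8.63), *Dkk3* (1.12, 0.738 to 1.69) and *Ptn* (0.764, 0.423 to 1.33) had counting intervals that spanned 1. The sum of the 5 genes was 1.49 times (1.21 to 1.83) that of other FBs. The Schwann cell genes among the listed markers summed to 2980 CPM in the other FBs of this library, where 10 of 71 cells had at least 5 such UMIs, and to 186 CPM in members, where 0 of 26 cells did. In other FBs 298 of the 535 such UMIs came from 1 cell. *Mbp*, a myelin gene, had no UMI in members and 65 UMIs (362 CPM) in other FBs. Of the 26 members 10 had over 10% mitochondrial UMIs.

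**Figure D2:**
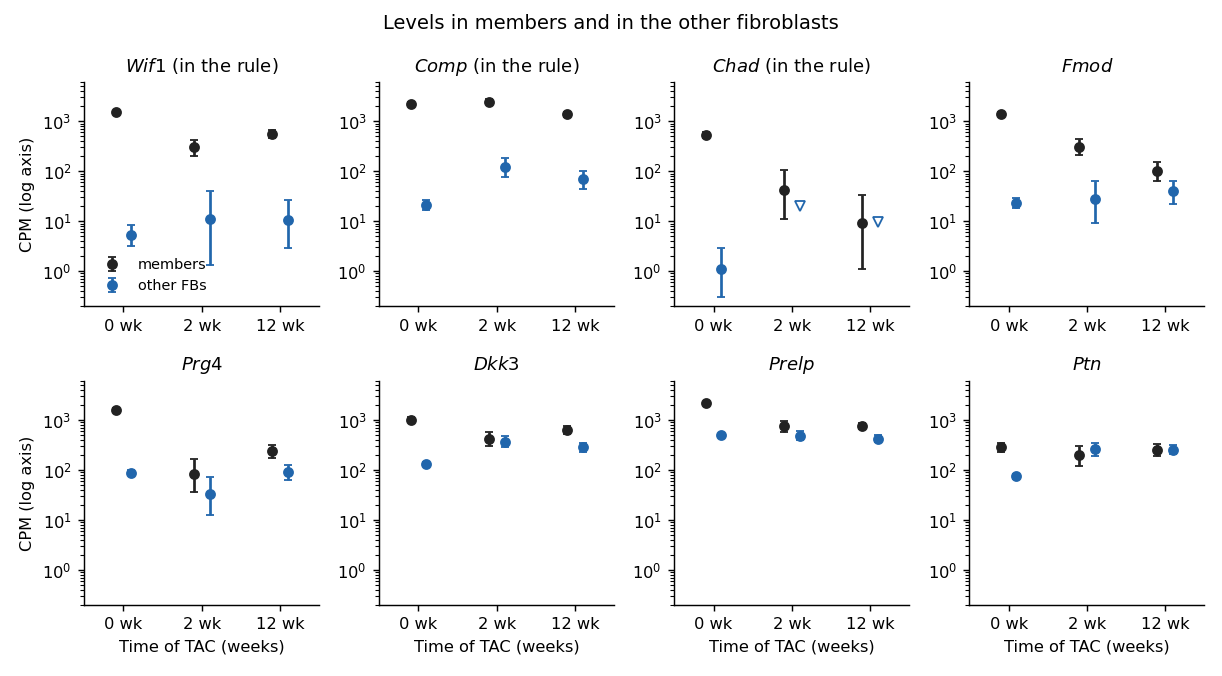
Levels of the 3 genes of the rule and of *Fmod*, *Prg4*, *Dkk3*, *Prelp* and *Ptn* in members (black) and other FBs (blue) at 0, 2 and 12 weeks of TAC, in CPM on a log axis, with exact 95% Poisson intervals, 1 library per time. Open triangles mark the upper limit where no UMI was found. *Fmod* in members was at 1409, 309 and 102 CPM, and other FBs stayed between 23.1 and 39.5 CPM.

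Within members, *Fmod*, *Prg4* and *Prelp* were past 2-fold lower in the 12-week library than in the healthy one, or 3 of the 5 genes, where 2.92% of all 3966 genes compared were. In other FBs 0 of the 5 were lower, where 0.401% of all 9719 genes were. The 5 genes were chosen with earlier results of these data known, and their healthy levels enter these ratios. The choice itself may thus favour lower 12-week levels in members, also in the groups of members below. *Fmod* was at 0.0721 times its healthy level in members (0.0448 to 0.110) and at 1.71 times (0.917 to 2.99) in other FBs. *Prg4* was at 0.146 times (0.108 to 0.195) in members and 1.02 times (0.692 to 1.45) in other FBs, and *Prelp* at 0.356 times (0.299 to 0.422) and 0.860 times (0.726 to 1.01). *Dkk3* was at 0.619 times (0.504 to 0.756) in members and at 2.17 times (1.74 to 2.69) in other FBs. *Ptn* was at 0.900 times (0.636 to 1.26) and 3.39 times (2.66 to 4.30). The sum of the 5 genes was at 0.306 times (0.276 to 0.340) in members and 1.35 times (1.21 to 1.49) in other FBs.

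Over all FBs together the sum was nearly level. The 5 genes summed to 1326 CPM (1290 to 1362) at 0 weeks, 1370 CPM (1236 to 1516) at 2 weeks and 1408 CPM (1315 to 1507) at 12 weeks, a ratio of 1.06 (0.986 to 1.14) between 12 and 0 weeks. Among them *Fmod* was at 0.411 times (0.287 to 0.574) and *Prg4* at 0.624 times (0.493 to 0.780) their healthy level, *Dkk3* at 1.93 times (1.66 to 2.23) and *Ptn* at 2.70 times (2.22 to 3.28).

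The groups of members differed in level and in their 12-week values. The healthy members with *Chad* also stood apart in depth, with a median of 2176 UMIs and 3.67% mitochondrial UMIs, against 4026 UMIs and 2.35% in members with *Wif1* and no *Chad* and 4015 UMIs and 2.23% in those with *Comp* alone, and the part of this was not tested. In the healthy library the 5 genes summed to 15339 CPM (14317 to 16414) in the 22 members with *Chad*, 6306 CPM (5902 to 6732) in the 34 members with *Wif1* and no *Chad*, and 3583 CPM (3298 to 3885) in the 40 members with *Comp* alone, against 806 CPM in other FBs. At 12 weeks the 11 members with *Wif1* and no *Chad* had 4018 CPM (3512 to 4576), and the 32 members with *Comp* alone had 1145 CPM (981 to 1329), where other FBs had 1086 CPM (984 to 1196). The first group was thus 3.70 times (3.13 to 4.36) above other FBs at 12 weeks, and the second was at 1.05 times (0.878 to 1.26). Only 2 members at 12 weeks had a *Chad* UMI.

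The genes of the 5 split along the same line. In members with *Wif1* and no *Chad*, *Dkk3* was at 1245 CPM (178 UMIs) in the healthy library and 1522 CPM (86 UMIs) at 12 weeks, a ratio of 1.22 (0.934 to 1.59), with a UMI in all 34 and all 11 cells. *Ptn* was at 531 and 850 CPM there, a ratio of 1.60 (1.09 to 2.32). In the same cells *Fmod* was at 1077 and 142 CPM, a ratio of 0.132 (0.0558 to 0.266), *Prg4* at 1342 and 407 CPM, a ratio of 0.303 (0.188 to 0.469), and *Prelp* at 2111 and 1097 CPM, a ratio of 0.520 (0.389 to 0.685). In members with *Comp* alone *Dkk3* was at 734 and 298 CPM, a ratio of 0.406 (0.282 to 0.576), and *Fmod* at 734 and 59.6 CPM, a ratio of 0.0812 (0.0363 to 0.159). *Ptn* was at 91.7 and 33.1 CPM there (15 and 5 UMIs), a ratio of 0.361 (0.103 to 1.04). All 5 genes were past 2-fold lower at 12 weeks in members with *Comp* alone, where 3.65% of 2358 genes were lower and 4.88% higher. *Fmod*, *Prg4* and *Prelp* were below their healthy level in both groups. The difference between the groups was not tested.

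**Figure D3:**
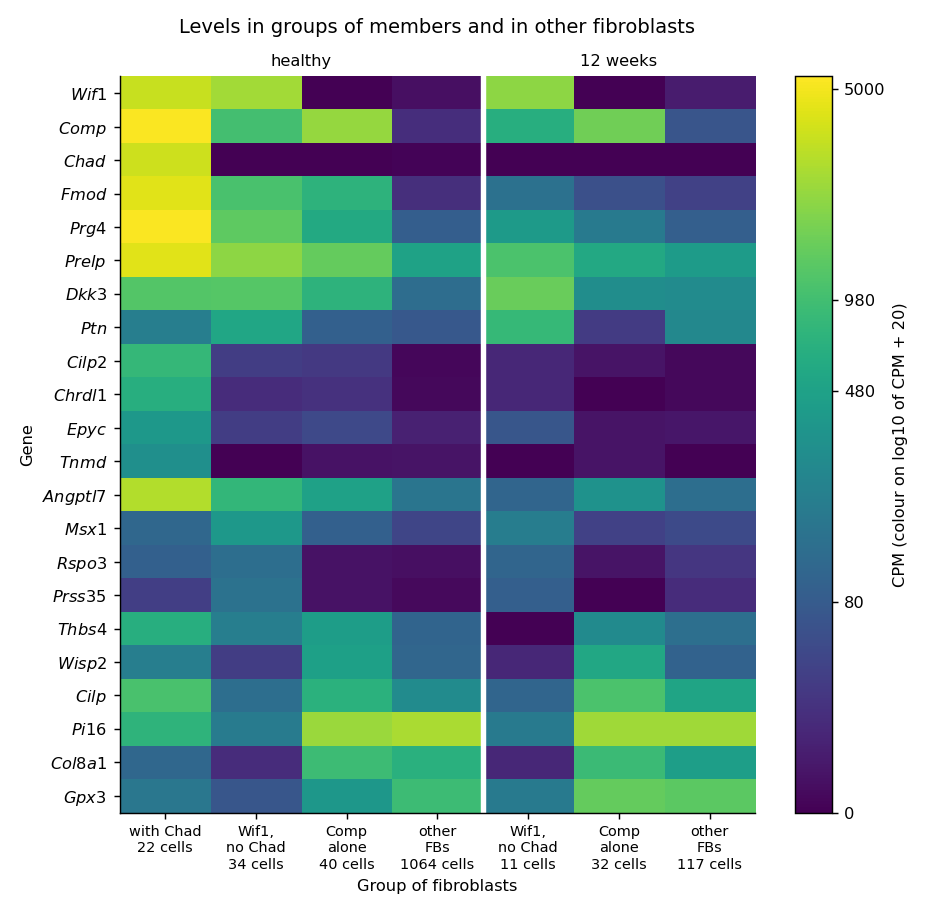
Levels of the genes of the rule, the 5 tendon- and cartilage-like genes and other named genes in the groups of members and in other FBs, healthy (left) and 12 weeks (right), with the number of cells below each column. Colour shows CPM on the scale log10 of CPM + 20. *Fmod*, *Prg4* and *Prelp* were highest in the 22 members with *Chad*, and *Dkk3* and *Ptn* remained high in the 11 members with *Wif1* at 12 weeks (1522 and 850 CPM).

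Other genes set the groups apart in the healthy library, and those named here were chosen after their values were seen. Members with *Chad* had *Cilp2*, a cartilage intermediate layer protein, at 825 CPM, against 35.0 CPM in members with *Wif1* and no *Chad* and 30.6 CPM in those with *Comp* alone. The BMP antagonist *Chrdl1* was at 660, 21.0 and 24.5 CPM, *Epyc*, a small leucine-rich protein of cartilage, at 385, 35.0 and 48.9 CPM, and *Tnmd*, a marker of tendon, at 312, 0 and 6.11 CPM. The 17 UMIs of *Tnmd* in members with *Chad* came from 3 cells. Members with *Wif1* and no *Chad* led in *Msx1*, a transcription factor of developing valve cushions, at 385 CPM against 91.7 CPM with *Comp* alone, a ratio of 4.19 (2.34 to 7.99). They also led in the WNT agonist *Rspo3* (19 UMIs against 1, a ratio of 21.7, 3.45 to 903) and in *Wnt5a* (168 against 42.8 CPM).

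Members with *Comp* alone carried adventitial genes at levels near those of other FBs, but not genes of resting FBs. Of 15 adventitial genes 0 were past 2-fold lower than in healthy other FBs in members with *Comp* alone, where 1.81% of 9518 genes were lower and 0.956% higher. In members with *Wif1* and no *Chad* 10 of the 15 were lower, where 4.19% of 9536 genes were lower and 2.34% higher. Of 16 genes of resting FBs 11 and 14 were lower in these groups. *Pi16*, a marker of adventitial FBs, was at 2329 CPM in them and 2676 CPM in other FBs, but at 189 CPM in members with *Wif1* and no *Chad*. *Col8a1*, a network collagen, was at 923, 685 and 21.0 CPM in the same order, and *Wisp2*, a secreted matrix-associated protein, at 471, 108 and 35.0 CPM, and thus above other FBs in members with *Comp* alone. Of the 40 healthy members with *Comp* alone 28 (70.0%) had at least 3 UMIs of *Cd248* and *Pi16*, as did 734 of 1064 other FBs (69.0%), 3 of 34 members with *Wif1* and no *Chad* (8.82%) and 2 of 22 members with *Chad* (9.09%). At 12 weeks *Pi16* was at 2456 CPM in members with *Comp* alone and 177 CPM in members with *Wif1*.

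Compared with the whole transcriptome of healthy other FBs, 130 of the 9684 genes compared were past 2-fold higher in members and 134 past 2-fold lower, with 20 CPM added to each level and a minimum of 20 UMIs. This is a background of 1.34% higher and 1.38% lower. The leading genes beyond the rule were *Fmod*, *1500015O10Rik*, *Prg4*, *Cilp2*, *Cyp26a1*, *Dkk3*, *Cox4i2*, *Chrdl1*, *Angptl7*, *Cadm1*, *Clu* and *Cytl1*. 1500015O10Rik was at 1490 CPM in members and 38.3 CPM in other FBs, a ratio of 38.9 (32.2 to 47.3). *Cyp26a1*, which degrades retinoic acid, was at 136 CPM (49 UMIs) against 0.563 CPM (2 UMIs), a ratio of 241 (63.2 to 2046). *Angptl7*, a secreted angiopoietin-like protein, was at 969 CPM against 159 CPM, a ratio of 6.08 (5.31 to 6.96). *Clu*, a secreted chaperone, was at 509 CPM against 87.8 CPM, a ratio of 5.80 (4.81 to 6.98), and *Cytl1*, a cytokine-like protein of cartilage, at 756 CPM against 138 CPM, a ratio of 5.46 (4.69 to 6.34).

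The genes lowest in healthy members were *Cxcl14*, *Hmcn2*, *Lamb1*, *Pla1a*, *Ccl7*, *Ccl2*, *Smoc2*, *Dpep1*, *Ifi205*, *Hsd11b1*, *Tnfaip2*, *Kcnk2*, *Gpx3*, *Nid1* and *Ms4a4d*. The chemokine *Cxcl14* had 1 UMI in members (2.77 CPM) and 577 UMIs in other FBs (162 CPM), a ratio of 0.0170 (0.000431 to 0.0954). *Hmcn2*, a large matrix protein, had 0 UMIs in members and 408 UMIs (115 CPM) in other FBs, and was at least 13.8-fold lower with the floor of 3 counts. The basement membrane genes *Lamb1* (16.6 against 220 CPM) and *Nid1* (141 against 589 CPM) and the secreted antioxidant enzyme *Gpx3* (222 against 933 CPM, a ratio of 0.237, 0.188 to 0.296) were also lower.

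**Figure D4:**
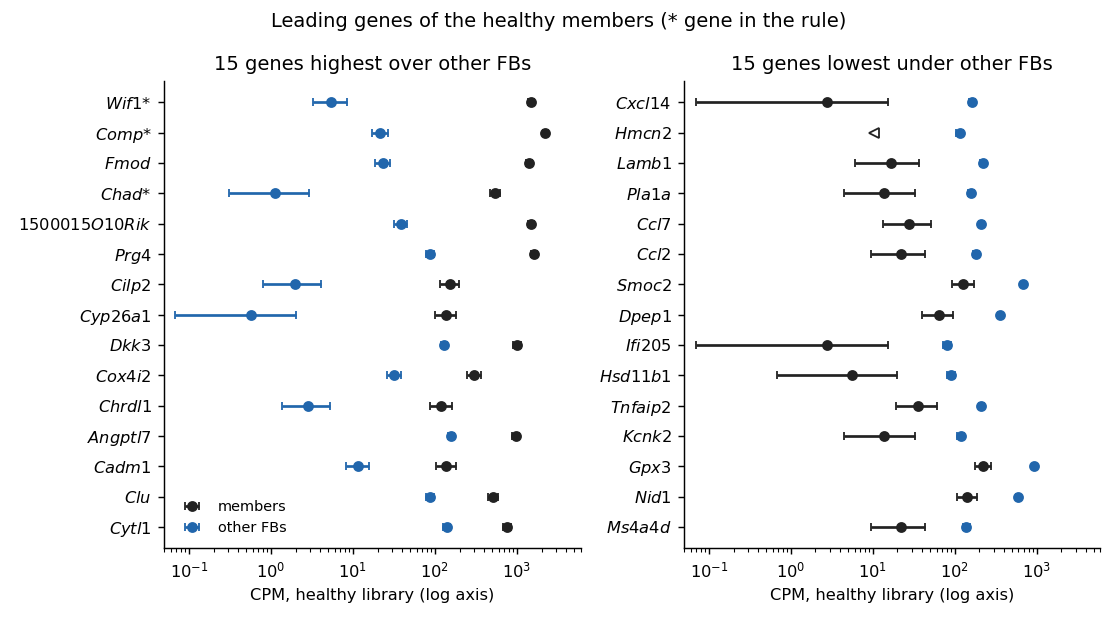
The 15 genes with the largest ratio of healthy members over healthy other FBs (left) and the 15 with the smallest (right), in CPM on a log axis, with exact 95% Poisson intervals. Members are black and other FBs blue, an asterisk marks a gene of the rule, and the open triangle marks an upper limit. *Fmod* was at 1409 against 23.1 CPM and *Gpx3* at 222 against 933 CPM.

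Listed genes of matrix and signalling showed where the members stood (rule genes left out, against a median of -0.05 on the log2 scale over all 9684 genes). Of 20 cartilage genes 9 were past 2-fold higher and 0 lower, with a median log2 ratio of 0.91. They included *Cilp2*, *Col11a1* (60.9 against 2.53 CPM) and *Col11a2* (63.7 against 0.844 CPM), which form the minor fibrillar collagen of cartilage, and *Mgp*, an inhibitor of calcification, at 19039 against 6352 CPM. The defining cartilage genes *Acan* and *Col2a1* had 6 and 1 UMIs in all healthy members. Of 10 tendon genes 4 were past 2-fold higher and 0 lower, with a median of 0.36, among them *Scx*, the transcription factor of tendon, at 74.8 against 9.29 CPM, a ratio of 8.05 (4.65 to 13.8). Of 12 small leucine-rich proteoglycans and relatives, 3 were higher (*Fmod*, *Prelp* and *Epyc*) and 1 was lower (*Podn*), with a median of 0.34.

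Genes listed as secreted WNT inhibitors or their relatives were high in part in the members, besides *Wif1*, which the rule used. Of 5 compared 3 were past 2-fold higher, *Dkk3*, *Sfrp2* (233 against 59.1 CPM) and *Frzb* (255 against 67.3 CPM), and 0 were lower, with a median of 1.65. *Dkk3*, of the Dickkopf family, is also one of the 5 genes described above and a marker given for these cells. Of 17 WNT ligands, receptors and targets 3 were higher (*Rspo3*, *Wnt5a* and *Nkd1*) and 0 lower, with a median of 0.40. Of 27 BMP and TGF-beta genes 2 were higher (*Chrdl1* and *Ltbp2*) and 1 was lower (*Ltbp1*), with a median of 0.21.

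The name valve-like was checked against valve markers. Of 14 genes of valve interstitial cells 3 were past 2-fold higher in healthy members, *Cpxm2* (116 against 12.4 CPM), *Msx1* (210 against 44.2 CPM) and *Rspo3* (69.2 against 5.07 CPM), 1 was lower (*Hmcn2*), and the median was 0.16. *Hapln1*, which links hyaluronan in valve leaflets, had 6 UMIs in healthy members, 0 at 2 weeks and 2 at 12 weeks. Of the endocardial list *Cytl1* and *Cdh11* were past 2-fold higher, while *Npr3* had 1 UMI and *Vwf* 0 UMIs in healthy members. In summed level *Fmod*, *Dkk3* and *Prg4* were higher in members than in other FBs at 0 and 12 weeks. At 12 weeks the thinned shares of cells with *Fmod* and with *Prg4* had overlapping intervals in members and other FBs. At 2 weeks the counting intervals of the ratios of *Dkk3* and *Prg4* spanned 1. The cells are therefore called members, by the rule. All 3 genes of the rule were found together in 13 of 96, 1 of 26 and 0 of 45 members, and *Comp* alone in 40, 22 and 32.

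Markers of resting and adventitial FBs were low in healthy members. Of 16 genes of resting FBs 12 were past 2-fold lower and 0 higher (median -1.56 on the log2 scale). Of 15 adventitial genes 9 were lower and 0 higher (median -1.09). *Pi16* was at 1243 against 2676 CPM, a ratio of 0.465 (0.422 to 0.511). Of 23 genes of activated FBs 7 were past 2-fold higher and 0 lower, with a median of 0.41, among them *Thbs4* (377 against 102 CPM), *Cthrc1* (105 against 14.9 CPM) and *Ltbp2* (219 against 69.8 CPM). *Postn*, the usual marker of activated FBs, was at 886 against 766 CPM, a ratio of 1.16 (1.03 to 1.30). Genes of the dissociation response were lower in members, with 17 of 18 below other FBs, 1 past 2-fold lower and a median of -0.59. Of 9 fibrillar collagen genes 2 were higher (*Col11a1* and *Col11a2*) and 1 was lower (*Col5a3*), and of 17 elastic fibre genes 2 were higher and 2 lower.

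The members overlapped with other kinds of FBs and differed from them in the 5 genes. At least 3 UMIs of *Postn*, *Thbs4* and *Cilp* were found in 43.8% of healthy members and 25.1% of other FBs, and in 57.8% and 35.0% at 12 weeks. In the healthy library the sum of the 5 genes was 6.21 times (5.80 to 6.65) that of the 267 other FBs with at least 3 UMIs of *Postn*, *Thbs4* and *Cilp*, and 8.51 times (8.01 to 9.03) that of the 734 with at least 3 UMIs of *Cd248* and *Pi16*. At 12 weeks these ratios were 1.54 (1.32 to 1.80) and 2.19 (1.85 to 2.60).

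Markers of other cell types were counted in members. In the healthy library the endothelial list summed to 332 CPM in members and 571 CPM in other FBs, the blood list to 371 and 296 CPM, and the mural list to 338 and 238 CPM, with at least 5 UMIs of these lists in 2, 2 and 4 of 96 members. Of the 134 blood UMIs in members 47 came from 1 cell. The blood and mural sums were thus 1.26 times (1.04 to 1.504) and 1.42 times (1.16 to 1.72) those of other FBs. The endocardial list summed to 919 and 234 CPM, a ratio of 3.93 (3.45 to 4.46), with at least 5 UMIs in 21 of 96 members, and *Cytl1* made up 756 and 138 CPM of it. At 12 weeks the sums were 439 and 638 CPM, 370 and 540 CPM, and 203 and 287 CPM, with at least 5 UMIs in 5, 3 and 2 of 45 members. The endocardial list was at 1109 and 369 CPM there, a ratio of 3.00 (2.43 to 3.73), with at least 5 UMIs in 9 of 45 members, and *Cytl1* made up 952 and 277 CPM. In members 66 of the 240 UMIs of this list came from 1 cell, and in other FBs 45 of 140. *Npr3* and *Vwf* had 0 UMIs in the 12-week members. The Schwann cell list summed to 203 CPM in members and 548 CPM in other FBs at 12 weeks, and to 296 and 368 CPM in the healthy library. Of the 208 such UMIs in the 12-week other FBs 99 came from 1 cell. The part of these lists in the results was not tested. The values without FBs with any UMI of the endothelial, blood or mural genes of the rule alone are given at the end.

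At 12 weeks 43 of 4175 genes were past 2-fold higher in members than in other FBs (1.03%) and 96 were lower (2.3%). *Cyp26a1* had 23 UMIs (106 CPM) in members and 0 in other FBs, at least 13.4-fold higher with the floor of 3 counts. 1500015O10Rik was at 383 against 36.9 CPM, a ratio of 10.4 (5.86 to 19.8), and *Cytl1* at 952 against 277 CPM, a ratio of 3.44 (2.71 to 4.39). Of 9 cartilage genes 1 was past 2-fold higher (*Cytl1*) and 0 lower. Of 4 genes listed as WNT inhibitors or their relatives *Sfrp2* and *Dkk3* were higher and 0 lower. *Sfrp2* was at 134 against 34.3 CPM, a ratio of 3.91 (1.97 to 8.19). Of 15 genes of resting FBs 4 were lower and 0 higher (median -0.43 on the log2 scale), where 12 of 16 had been lower in the healthy library.

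Between the healthy and the 12-week members, 138 of 3966 genes were past 2-fold higher at 12 weeks (3.48%) and 116 were lower (2.92%). In other FBs 122 of 9719 genes were higher (1.26%) and 39 lower (0.401%). Among the genes highest at 12 weeks in members were Gm10116, Gm10020, *Gstp1*, Gm10076, Gm2564, Gm10073, *Ctla2a*, *Nme2* and *Inmt*. In other FBs these genes were also at least 3.07 times their healthy level at 12 weeks or had no healthy UMI (Gm2564). *Gstp1*, a detoxifying enzyme, was at 23.6 times its healthy level in members (10.4 to 66.2) and at 23.6 times in other FBs (17.4 to 32.3). *Gstp1* was also higher outside FBs, at 8.29 CPM in healthy and 305 CPM in 12-week ECs, and at 5.21 and 86.9 CPM in blood cells. The genes of the dissociation response moved along, with 16 of 18 above their healthy level in members, 1 past 2-fold higher (*Nr4a1*), a median of 0.42 on the log2 scale and a summed ratio of 1.31 (1.26 to 1.35), against 1.05 (1.03 to 1.08) in other FBs, and their part was not tested. *Inmt*, a methyltransferase and marker of resting FBs, had 1 UMI in healthy members and 27 at 12 weeks, a ratio of 45.1 (7.43 to 1845), and was at 3.07 times (2.25 to 4.13) in other FBs.

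The genes lowest at 12 weeks in members were *Chad*, *Fmod*, *Clu*, *Prg4*, *Cilp2*, *Chrdl1*, *Spp1*, *Npy*, *Ptgfr* and *Scx*. *Clu* was at 60.1 against 509 CPM, a ratio of 0.118 (0.0616 to 0.207), and at 2.34 times (1.80 to 3.01) in other FBs. *Cilp2* had 55 UMIs in healthy members and 2 at 12 weeks, a ratio of 0.0607 (0.00717 to 0.230). *Chrdl1* had 43 UMIs and 1 (0.0388, 0.000960 to 0.228), *Spp1*, the gene of osteopontin, 37 and 1 (0.0451, 0.00111 to 0.267), and *Scx* 27 and 1 (0.0618, 0.00151 to 0.375). *Cilp2*, *Chrdl1*, *Spp1* and *Scx* had been past 2-fold higher in healthy members with *Chad* than in the other healthy members, where 4.57% of 2647 genes were. *Npy* had 24 UMIs and 0, and was at least 4.79-fold lower with the floor of 3 counts. *Angptl7* was at 0.319 times (0.242 to 0.416), 1500015O10Rik at 0.257 times (0.202 to 0.325), and *Thbs4* at 0.503 times (0.346 to 0.718). *Cytl1*, by contrast, was at 1.26 times (1.05 to 1.51) in members and 2.00 times (1.60 to 2.47) in other FBs. In members with *Wif1* and no *Chad*, however, *Cytl1* was past 2-fold lower, where 7.28% of 1497 genes were. In the 12-week members, 66 of the 240 UMIs of the endocardial list, mostly of *Cytl1*, came from 1 cell.

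The gene lists differed in their course. Of 15 cartilage genes 0 were past 2-fold higher in 12-week members and 6 were lower, with a median log2 ratio of -0.81, where the median over all 3966 genes was 0.00. The 6 were *Cilp2*, *Spp1*, *Col11a2*, *Col11a1*, *Ucma* and *Epyc*. All 6 had been past 2-fold higher in healthy members with *Chad* than in the other healthy members, where 4.57% of 2647 genes were. Members with *Chad* were 22 of 96 at 0 weeks and 2 of 45 at 12 weeks. In members with *Wif1* and no *Chad*, only 7 of the 15 cartilage genes reached the minimum of UMIs for a comparison. Of these 7 genes 0 were higher and 1 was lower (*Cytl1*, not one of the 6), where 7.28% of 1497 genes were lower. A gene below the minimum could not be counted as lower. These counts thus do not show whether the 6 genes as a set were lower in that group. The part of the make-up of the members was not tested. Of 8 tendon genes 1 was higher (*Ctgf*) and 1 lower (*Scx*), with a summed ratio of 1.08 (0.979 to 1.19). Of 19 genes of activated FBs 2 were higher and 3 lower, and of 15 elastic fibre genes 0 were higher and 0 lower. Of 10 small leucine-rich proteins 3 were lower and 0 higher (*Fmod*, *Prelp* and *Epyc*). Of 8 fibrillar collagen genes 3 were lower and 0 higher, with a median of -0.87. Of 13 genes of resting FBs 7 were higher and 0 lower, with a median of 1.08, among them *Gpx3* at 4.94 times (3.82 to 6.45) in members and 1.42 times (1.29 to 1.56) in other FBs. Of 13 adventitial genes 2 were higher (*Ly6a* and *Igfbp6*) and 0 lower, with *Pi16* at 1.45 times (1.27 to 1.67). In members with *Comp* alone, *Pi16* was at 1.05 times (0.911 to 1.22), and these cells were 40 of 96 members at 0 weeks and 32 of 45 at 12 weeks.

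**Figure D5:**
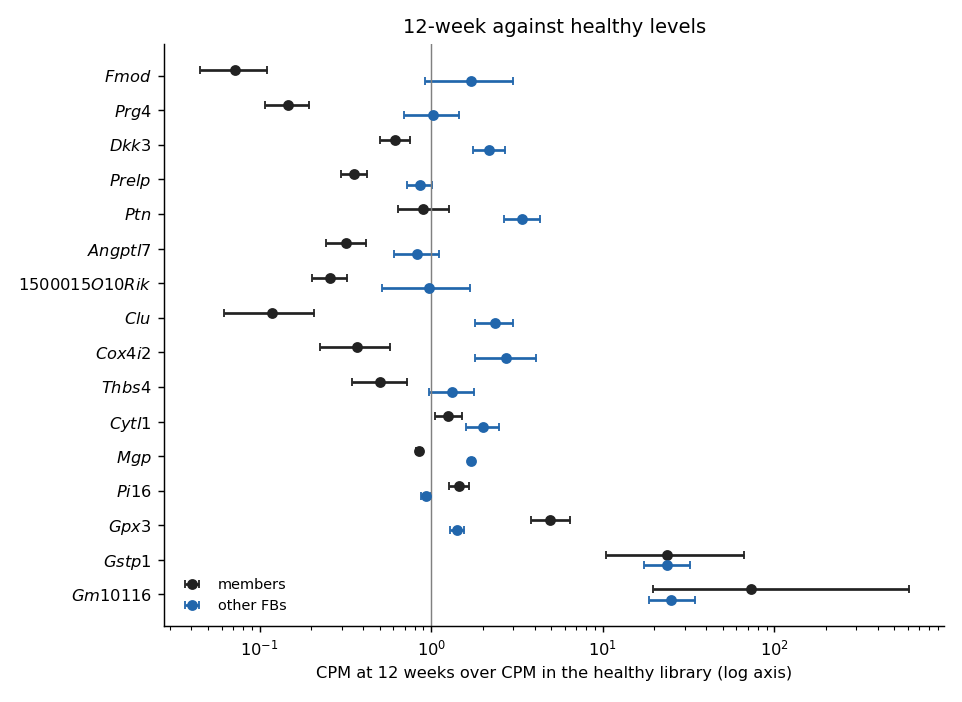
Ratio of the CPM at 12 weeks to the CPM in the healthy library on a log axis, in members (black) and other FBs (blue), with exact 95% intervals for counting error, for the 5 tendon- and cartilage-like genes and other named genes. The grey line marks a ratio of 1. *Fmod*, *Prg4*, *Prelp*, *Dkk3* and *Clu* lay below 1 in members, *Dkk3* and *Clu* above 1 in other FBs, and *Gstp1* at 23.6 in both.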

How the data were processed

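The authors made droplet libraries of ventricular non-cardiomyocytes and deposited raw UMI counts per gene and cell, not normalized, with 27998 genes in each of the 3 matrices. The submitters' processing notes name Cell Ranger 2.0.0 and mm10. A minimum of 200 genes per cell left out 8, 8 and 10 cells. FBs and members were chosen by the UMI sums given in the report. The members, the gene lists and the groups were chosen with earlier results of these data known.

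UMIs were summed over the cells of a group and divided by all UMIs of the group (CPM). Intervals at 95% were exact Poisson for levels, exact conditional binomial for ratios and Clopper-Pearson for shares, and cover counting error only. With 1 library per phase there were no replicates, and no p-values were computed. A gene was past 2-fold on levels with 20 CPM added and at least 20 UMIs over both groups, and the floor for 0 UMIs was 3 counts. Named genes were the genes of the rule, the markers, *Prelp* and *Ptn*, the 15 with the largest ratios each way against other FBs in the healthy library, and the 10 each way between 12 and 0 weeks in members, with at least 20 UMIs in at least 5 cells of the higher group and without mitochondrial, ribosomal and haemoglobin genes. A gene named by this rule is not reported here. From each gene list up to 4 genes were named, those with the most UMIs or the leading ratios; a few others (*Acan*, *Col2a1*, *Hapln1*, *Npr3*, *Vwf*) were named as defining markers after their values were seen, as were the groups of members and the genes that set them apart. Blood cells and ECs were chosen by the same marker sums as FBs. Doublets were not removed, since Scrublet in scanpy 1.11.5 called 33 of 6915 cells (0.477%), too few for a working call, and 0 members.

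Gene coordinates are those of GENCODE vM21 (GRCm38) and promoters those of RefSeq (GRCm38.p6). Steps ran in Python 3.11.15 with numpy 2.4.6 and scipy 1.17.1 and were tested on simulated data. Figures used matplotlib 3.10.9.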

Additional observations from a re-analysis of the deposited data

Results flagged for a closer look

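Outside the FBs, 18 cells had at least 3 UMIs of *Wif1*, *Comp* and *Chad* (13, 1 and 4 at 0, 2 and 12 weeks) and were used in no comparison. Of these 13 had under 3 UMIs of the FB genes, 8 an endothelial, 4 a mural and 4 a blood UMI, and none had a *Chad* UMI. The highest counts in them were 28 UMIs of *Wif1* and 7 of *Comp*.

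For 5 named genes, the 12-week level over the healthy level lay on opposite sides of 1 in members and other FBs, with both intervals for counting error away from 1. *Dkk3* was at 0.619 times in members and 2.17 times in other FBs. *Clu* was at 0.118 and 2.34 times, *Cox4i2* at 0.367 and 2.73 times, and *Cadm1* at 0.467 and 4.11 times. *Ccl2* was at 6.88 and 0.420 times. The first 4 were among the 15 genes highest in healthy members over healthy other FBs, and *Ccl2* was among the 15 lowest. The healthy levels that chose these genes also enter the ratios, so the choice itself favours opposite directions. The difference between members and other FBs was not tested, as each phase had 1 library.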

How the results depend on the processing

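There were 195 values under 15 other settings, 12 planned and 3 added after seeing the data. Of these 160 kept within the counting interval of the reported value or within 1.5 times of a reported count, and 35 moved beyond it. Direction was judged only for ratios away from 1 by their interval, and 0 of them changed it. Some values could move little or not at all. The called doublets held 0 members, and leaving out members with *Chad* or the member with the most UMIs of the 5 genes did not touch other FBs. The share of members was 10.5% at 0 weeks with at least 2 rule UMIs, 6.38% and 19.1% at 0 and 12 weeks with at least 5, 6.50% at 0 weeks without members with *Chad*, and 5.52%, 18.2% and 15.2% at 0, 2 and 12 weeks after thinning to 1500 UMIs. The sum of the 5 genes in members over other FBs at 0 weeks was 6.999 with at least 2 rule UMIs, 8.74 with at least 5, 7.53 without the member with the most UMIs of these genes, 6.02 without members with *Chad*, and 8.996 as a mean over cells, which also gave 1.88 at 2 weeks and 2.38 at 12 weeks. The 12-week over healthy ratio of this sum in members was 0.356 with at least 2 rule UMIs, 0.267 with at least 5 and 0.397 without members with *Chad*. In other FBs it was 1.13 as a mean over cells and 1.07 (0.895 to 1.26) without FBs with any UMI of the endothelial, blood or mural rule genes, so that its distance from 1 depends on that setting. For *Ptn* in members, at 0.900 as reported with an interval that spans 1, the ratio was 1.46 with at least 5 rule UMIs and 1.53 without those FBs. For *Prg4* it was 0.0396 without them and 0.256 without members with *Chad*, for *Fmod* 0.0382 and for *Prelp* 0.264 with at least 5 rule UMIs, and for *Dkk3* 0.479 without those FBs.

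Counts of genes past 2-fold depended on the added CPM and the minimum of UMIs. With 5 CPM added they were 326 higher and 730 lower in healthy members against other FBs, and 244 lower between 12 and 0 weeks. Between 12 and 0 weeks they were 72 higher and 37 lower with at least 50 UMIs, 275 and 194 with no minimum, and 176 lower without FBs with any UMI of the other rule genes. The removal of called doublets says nothing, since the caller marked too few cells. No replicate could be left out and no paired analysis was possible because each phase had 1 library. At 2 and 12 weeks, 26 and 45 members limit the depth.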
